A study of Mus musculus with 40 samples.

Results

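The heat shock chaperones examined here are 10 genes of the deposited count table, which lists 55421 genes. They were chosen by symbol from their textbook roles, with earlier results of these data known, and were read in all 40 libraries. The inducible cytosolic members are Hspa1a, Hspa1b, Dnajb1, Hsph1 and Hsp90aa1, the constitutive cytosolic members are Hspa8, Hsp90ab1 and Dnaja1, and the mitochondrial members are Hspd1 and Hspe1. All 10 had a row of their own, and all 10 passed the filter on low counts in each comparison.

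Chaperones bind unfolded protein and help it to fold. Under heat or other stress, heat shock factor 1 binds repeated nGAAn units, called heat shock elements, and raises the inducible genes within minutes, while the constitutive cousins Hspa8 and Hsp90ab1 already run at a high level in unstressed cells. HSP70 proteins work with J-domain partners, which deliver the substrate, and with nucleotide exchange factors such as HSPH1, whereas HSPD1 and HSPE1 form the chaperonin chamber of mitochondria.

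CD4+ T cells came from wild-type mice that had been perfused, and the labels give perfusion with tissue digestion as the handling of all 40 samples. From each of 10 sources (blood, spleen, lymph node, Peyer's patch, liver, lung, pancreas, kidney, and the 2 gut wall preparations named IEL and LPL in the labels), 2000 cells positive for the Foxp3-Thy1.1 reporter were sorted as regulatory T cells (Treg). Cells negative for it were sorted as Tconv. There were 3 Treg libraries and 1 Tconv library per source, made with a kit that reads the 3′ ends of mRNA. Blood, spleen and lymph node Treg (9 libraries) were the lymphoid reference, the other sources except Peyer's patch (18 Treg libraries from 6 sources) were called tissue, and Peyer's patch was set apart. A reporter gate marks cells that carry the reporter at the time of sorting. Neither the age of the mice nor whether replicates were separate animals is given in the sources used here. The p-values therefore measure only the spread between these libraries. The digestion of a source goes with the source, and the effects of both cannot be told apart.

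Library totals ran from 12197980 to 28823493 counts. Foxp3 stood at 68.2 to 309 CPM in Treg and 0.162 to 6.74 CPM in Tconv, Cd3e at 673.5 to 1696 CPM and Cd4 at 341 to 1227 CPM in all 40 libraries. Levels below are in CPM, with totals corrected by TMM. A read marks a transcript's 3′ end, so levels were not divided by length, and levels of different genes are not ranked against each other.

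Heat shock elements were looked for in the members' promoters. Of the 10 genes, 7 had a RefSeq window on GRCm38.p6 that runs from 250 bases before to 50 bases after the annotated start. Each was searched on both strands for a pair of inverted nGAAn units (GAANNTTC or TTCNNGAA, each its own reverse complement) and for runs of 3 alternating units (TTC, GAA and TTC, or GAA, TTC and GAA, each 2 bases from the next), which contain the pairs. Windows of 4 members are printed, the HSP70 pair because its copies are near-identical and Hsph1 and Hspe1 because they hold runs of 3 units. They read 5′ to 3′ in the direction of the gene, with these matches in capitals.
Hspa1a, chr17:34972107-34972406, minus strand: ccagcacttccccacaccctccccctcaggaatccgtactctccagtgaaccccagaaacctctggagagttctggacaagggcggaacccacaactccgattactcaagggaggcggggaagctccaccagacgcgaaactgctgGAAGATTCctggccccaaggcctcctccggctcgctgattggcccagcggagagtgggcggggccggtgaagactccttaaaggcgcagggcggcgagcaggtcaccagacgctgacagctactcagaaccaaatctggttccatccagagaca
Hspa1b, chr17:34959189-34959488, minus strand: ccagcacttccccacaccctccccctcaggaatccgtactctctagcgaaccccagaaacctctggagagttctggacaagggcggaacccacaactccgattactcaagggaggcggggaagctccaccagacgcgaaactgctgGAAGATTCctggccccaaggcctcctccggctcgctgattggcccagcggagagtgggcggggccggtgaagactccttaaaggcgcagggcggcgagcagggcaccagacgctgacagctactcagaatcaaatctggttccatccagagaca
Hsph1, chr5:149636287-149636586, minus strand: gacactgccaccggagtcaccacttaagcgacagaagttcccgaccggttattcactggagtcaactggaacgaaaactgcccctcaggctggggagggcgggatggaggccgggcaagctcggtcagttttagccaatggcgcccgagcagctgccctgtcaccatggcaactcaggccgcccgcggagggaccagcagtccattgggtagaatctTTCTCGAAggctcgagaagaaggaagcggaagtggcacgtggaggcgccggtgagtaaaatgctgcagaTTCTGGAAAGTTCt
Hspe1, chr1:55087898-55088197, plus strand: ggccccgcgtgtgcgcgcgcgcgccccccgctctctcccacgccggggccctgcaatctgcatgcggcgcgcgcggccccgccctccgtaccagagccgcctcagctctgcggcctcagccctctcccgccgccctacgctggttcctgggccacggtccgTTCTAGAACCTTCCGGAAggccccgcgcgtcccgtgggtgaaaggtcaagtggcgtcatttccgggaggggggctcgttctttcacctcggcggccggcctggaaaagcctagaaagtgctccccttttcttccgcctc
The Hspa1a and Hspa1b windows differed at 4 of 300 bases (98.7% identical), and each held 1 pair, at position -104 from the start. Hsph1 carried 3 pairs and 1 run of 3 units between positions -33 and 48. Hspe1 lies head to head with Hspd1, whose second window overlapped that of Hspe1 by 285 bases, so that both genes share the run of units at -89 to -72 of the Hspe1 window. A pair stood in windows of 6 members, the sixth being Dnaja1 at position -124, and a run of 3 in those of Hspd1, Hspe1 and Hsph1, beside 15.1% and 0.603% of all 32851 windows (genes can have several). Neither Dnajb1 window held these letters. A match describes the letters of a window and is not evidence of binding.

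The 3′ ends tell the pair of HSP70 genes apart. Hspa1b (ENSMUSG00000090877.3, chromosome 17, 34956436 to 34959238, minus strand) and Hspa1a (ENSMUSG00000091971.3, chromosome 17, 34969190 to 34972156, minus strand) lie 9951 bases apart on mm10. In the last 500 bases of their transcripts no run of 50 bases was shared with each other or with another gene, and the same held for Dnajb1, Hsph1, Hsp90aa1, Dnaja1 and Hspd1. Of such runs, 81.8% in Hspa8, 53.2% in Hspe1 and 7.76% in Hsp90ab1 also occurred in other annotated genes. How reads that fit several places were counted is not given in the sources used here, so the levels of Hspa8 and Hspe1 are uncertain in size.

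Hspa1a and Hspa1b encode the stress-inducible cytosolic HSP70, and they were the members that differed most between sources. Both were low in lymphoid Treg, highest in kidney Treg, raised in every LPL library, and high in single libraries of pancreas and Peyer's patch. In the 9 lymphoid Treg libraries Hspa1a ranged from 0 to 2.56 CPM with a median of 0.512, and Hspa1b from 0 to 10.7 CPM with a median of 2.33. Lymph node Treg replicate 6 had 0 counts of both, which allows up to 0.140 CPM by counting error alone, on its total before TMM correction.

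In kidney Treg replicates 1, 3 and 5, Hspa1a stood at 272, 2117 and 1669.6 CPM and Hspa1b at 603, 5365 and 4438 CPM. All 3 lay far above every lymphoid library, with replicate 1 the lowest. In LPL Treg replicates 1, 2 and 3, Hspa1a stood at 76.0, 58.8 and 66.2 CPM and Hspa1b at 235, 156 and 223 CPM, again above every lymphoid library and close to each other. IEL Treg, the other gut wall preparation, held 4.23, 1.25 and 5.05 CPM of Hspa1a and 19.0, 8.57 and 17.6 CPM of Hspa1b, so that replicate 2 lay inside the lymphoid range and the other 2 above it.

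Pancreas and Peyer's patch Treg split by library. In pancreas replicates 1, 5 and 6 Hspa1a stood at 2.03, 3.42 and 1309 CPM and Hspa1b at 8.95, 3.16 and 2737 CPM. In Peyer's patch replicates 1, 2 and 3 they stood at 50.5, 0.533 and 0.824 CPM and 129, 2.13 and 2.97 CPM. Pancreas replicate 6 and Peyer's patch replicate 1 were high, and the other 2 libraries of each source were at or near the lymphoid level.

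Liver Treg replicates 1, 3 and 4 held 5.17, 9.87 and 4.88 CPM of Hspa1a and 14.5, 67.0 and 17.2 CPM of Hspa1b, all above the highest lymphoid library. Lung Treg replicates 1, 5 and 6 held 0.692, 0.0396 and 0.318 CPM and 6.75, 0.317 and 6.89 CPM, within the lymphoid range. By mean level of Hspa1a the order was kidney, pancreas, LPL, Peyer's patch, liver, IEL, spleen, blood, lung and lymph node. Of the 9 pairs of neighbours in that order, 8 overlapped in their libraries, and LPL and Peyer's patch did not. The order for Hspa1b differed in its lower part (blood, lung and spleen), with the same 1 pair of neighbours apart. Such overlaps were not counted over all genes.

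**Figure D1:**
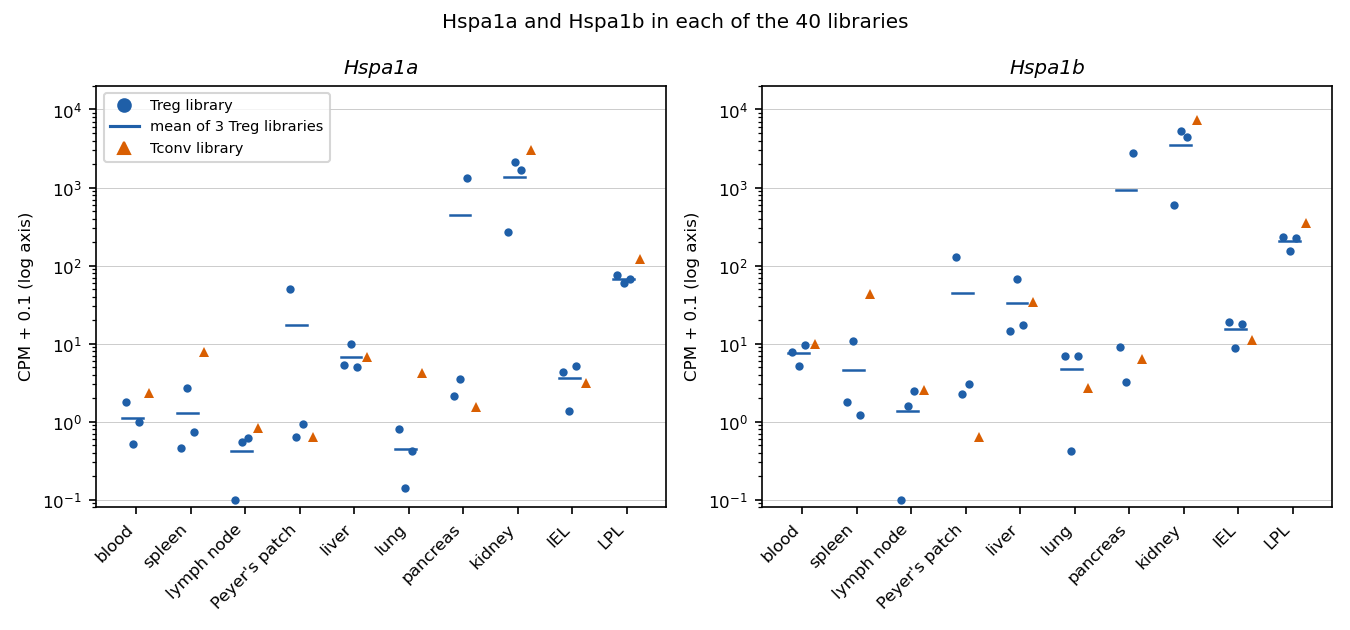
Level of Hspa1a (left) and Hspa1b (right) in each library by source, in CPM plus 0.1 on a log axis. Blue dots are the 3 Treg libraries of a source, the blue line their mean and the orange triangle its Tconv library. Kidney and LPL stand above the lymphoid sources in every library, while pancreas and Peyer's patch each have 1 high Treg library.

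Sources were compared by edgeR's quasi-likelihood test, and p was adjusted by Benjamini and Hochberg's method over all genes tested. Over the 6 tissues against lymphoid Treg, the log2 fold change was 5.21 ± 1.07 (SE) for Hspa1a (adjusted p = 0.00115) and 4.96 ± 1.04 for Hspa1b (adjusted p = 0.00132). These were the 2 members called of 10, where 21.8% of all genes tested were called. Both stayed past the threshold without any single library, at 4.004 to 5.593 for Hspa1a. Neither passed with spleen alone as the reference (Hspa1a adjusted p = 0.0932), with blood alone (0.0701) or with counts summed per source (0.259), and Hspa1b also did not in limma-voom (adjusted p = 0.0555). The mean covers unlike tissues, from kidney to lung, and in bulk RNA a change in the share of cells that express a gene cannot be told apart from a change of RNA per cell.

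Single sources were compared with the 9 lymphoid Treg libraries, which all of these comparisons share. In kidney Treg Hspa1a rose by 10.92 ± 1.35 on the log2 scale (adjusted p = 6.12e-06, edgeR) and Hspa1b by 9.99 ± 1.38 (adjusted p = 2.38e-05). In LPL Treg the rises were 6.58 ± 1.22 (adjusted p = 0.000305) and 5.90 ± 1.22 (adjusted p = 0.000913). The mean of Hspa1a was 1353 ± 962 CPM in kidney and 67.0 ± 8.64 CPM in LPL (SD, n = 3), beside 0.836 ± 0.799 CPM in lymphoid Treg (SD, n = 9). All 4 calls stayed without any single library, while Hspa1b in LPL missed the threshold against spleen alone (adjusted p = 0.0568) and blood alone (0.0703).

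The pancreas values were 9.28 ± 1.30 (adjusted p = 4.52e-05) and 8.05 ± 1.30 (adjusted p = 0.000236), but they rested on replicate 6. Without it Hspa1a was at 1.998 (adjusted p = 0.286) and Hspa1b at 0.87 (adjusted p = 0.765). With limma-voom, which weights libraries by quality, neither passed (adjusted p = 0.178 and 0.374). Peyer's patch Hspa1a passed at 4.62 ± 1.21 (adjusted p = 0.0302), and was at 0.007 without replicate 1. That call was also lost when any of 8 of the 9 lymphoid libraries was left out, spleen Treg replicate 3 being the exception, and in limma-voom (adjusted p = 0.793). Hspa1b in Peyer's patch did not pass (3.70 ± 1.19, adjusted p = 0.0874).

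Liver did not pass in either gene (3.25 ± 1.25 and 3.26 ± 1.19, adjusted p = 0.259 and 0.224), nor did IEL (2.32 ± 1.29 and 2.14 ± 1.21) or lung (-1.10 ± 1.92 and 0.41 ± 1.33). LPL and IEL Treg were also compared directly, a comparison chosen after their values were seen. Hspa1a differed by 4.26 ± 1.66 (adjusted p = 0.533) and Hspa1b by 3.76 ± 1.72 (adjusted p = 0.66). edgeR called 0 of 10 members there (2 at an unadjusted p under 0.05), beside 0.0447% of all genes, DESeq2 called 0 and limma-voom 2, these same genes at adjusted p of 0.0187 and 0.0166.

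The count of Hspa1b was 2.09 to 3.36 times that of Hspa1a in the 10 libraries with at least 1000 Hspa1a counts. It ran from 2.09 in pancreas Treg replicate 6 to 3.36 in LPL Treg replicate 3, while the level of Hspa1a in these 10 libraries ran from 50.5 to 3043 CPM. In libraries with fewer counts the ratio was as low as 0.628 (lung Tconv, 78 and 49 counts) and as high as 21.7 (lung Treg replicate 6, 6 and 130 counts).

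Dnajb1 (ENSMUSG00000005483.10, chromosome 8, 83608193 to 83612653, plus strand), the J-domain partner that delivers substrates to HSP70, was the inducible member after the HSP70 pair with the widest range of source means, 8.78-fold. It stood at 443, 2271 and 1649.7 CPM in kidney Treg replicates 1, 3 and 5 and from 134 to 450.2 CPM in lymphoid Treg (median 291). Kidney replicate 1 fell inside the lymphoid range, and replicates 3 and 5 lay well above it. The kidney log2 fold change was 2.47 ± 0.42 (adjusted p = 0.000257), and it was 1.99 to 2.91 with each library left out in turn.

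Dnajb1 was not called in LPL Treg, where Hspa1a was. In LPL it stood at 200.0, 208 and 212 CPM and at 190.1, 160.2 and 146 CPM in IEL Treg, the 2 lowest source means. Against lymphoid Treg these were log2 fold changes of -0.35 ± 0.48 and -0.66 ± 0.48 (adjusted p = 0.66 and 0.378). Between IEL with LPL and the 4 solid organs, Dnajb1 was the 1 member of 10 called, at -1.41 ± 0.37 (adjusted p = 0.00736), where 23.6% of all genes were called. It ran from -1.54 to -1.07 and stayed past the threshold with any library left out. The solid organs were unlike each other, with a mean of 1454 CPM in kidney and 269 CPM in lung. Every kidney, liver and lung Treg library lay above all IEL and LPL ones. Pancreas Treg replicates 1 and 5, at 122.6 and 142.8 CPM, lay below all of these, and replicate 6 held 774.6 CPM.

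Hsp90aa1 (ENSMUSG00000021270.13, chromosome 12, 110690605 to 110702728, minus strand), the inducible cytosolic HSP90, stood at 359.6, 867 and 875 CPM in kidney Treg and from 54.6 to 443 CPM in lymphoid Treg. Replicates 3 and 5 lay above all lymphoid libraries and replicate 1 lay below the highest of them, blood Treg replicate 5. Its kidney log2 fold change was 2.08 ± 0.48 (adjusted p = 0.00418). In no other source did it pass, with values from -0.09 in IEL to 0.88 in Peyer's patch.

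Hsph1 (ENSMUSG00000029657.15, chromosome 5, 149614287 to 149636376, minus strand), the exchange factor that resets HSP70, stood at 214, 485 and 402 CPM in kidney Treg. In lymphoid Treg it had its median at 98.3 CPM, but 612 CPM in blood replicate 5, above all kidney Treg libraries. The kidney value of 1.59 ± 0.58 did not pass (adjusted p = 0.0639). It passed in limma-voom (2.14, adjusted p = 0.00502), against lymph node Treg alone (2.69, adjusted p = 0.0339), without blood Treg replicate 5, at 1.97 (adjusted p = 0.022), and without spleen Treg replicate 3, at 1.79 (adjusted p = 0.0465).

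The constitutive cytosolic members had kidney fold changes below those of the called inducible members. Hspa8 (ENSMUSG00000015656.17, chromosome 9, 40800984 to 40810087, plus strand), the HSP70 that unstressed cells rely on, stood at 1408, 2356 and 2072 CPM in kidney Treg and from 458 to 1817 CPM in lymphoid Treg (median 897). Kidney replicates 3 and 5 were above every lymphoid library and replicate 1 was not. The log2 fold change was 1.15 ± 0.31 (adjusted p = 0.0125), and the call was lost without kidney Treg replicate 3 (0.97) or replicate 5 (1.09).

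Dnaja1 (ENSMUSG00000028410.13, chromosome 4, 40722150 to 40737149, plus strand), a J-domain partner of HSPA8, stood at 262, 526 and 501 CPM in kidney Treg and from 90.8 to 293 CPM in lymphoid Treg. As with Hspa8, kidney replicate 1 was inside the lymphoid range and the other 2 above it. The log2 fold change of 1.53 ± 0.39 passed (adjusted p = 0.00867) and was lost without kidney Treg replicate 3 (1.35) or 5 (1.40). Against blood Treg alone, neither Hspa8 (0.65), Dnaja1 (1.16) nor Hsp90aa1 (1.35) passed, and against spleen alone Dnaja1 and Hsp90aa1 did not.

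Hsp90ab1 (ENSMUSG00000023944.14, chromosome 17, 45567775 to 45573271, minus strand), the constitutive HSP90, stood at 1952, 2839.8 and 2244 CPM in kidney Treg and from 524 to 2622 CPM in lymphoid Treg. The groups overlapped, and the kidney value of 0.99 ± 0.39 did not pass (adjusted p = 0.0847), though it did in limma-voom (1.30, adjusted p = 0.00301), against lymph node Treg alone (1.61, adjusted p = 0.0433) and without spleen Treg replicate 3 (1.16, adjusted p = 0.0467). Its highest source mean was that of Peyer's patch, 2568 ± 1325 CPM (SD, n = 3), where replicate 1 held 4082 CPM and the others 1621 and 2001 CPM. The Peyer's patch value was 1.13 ± 0.39 (adjusted p = 0.115), and it passed in limma-voom (1.005, adjusted p = 0.0213).

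**Figure D2:**
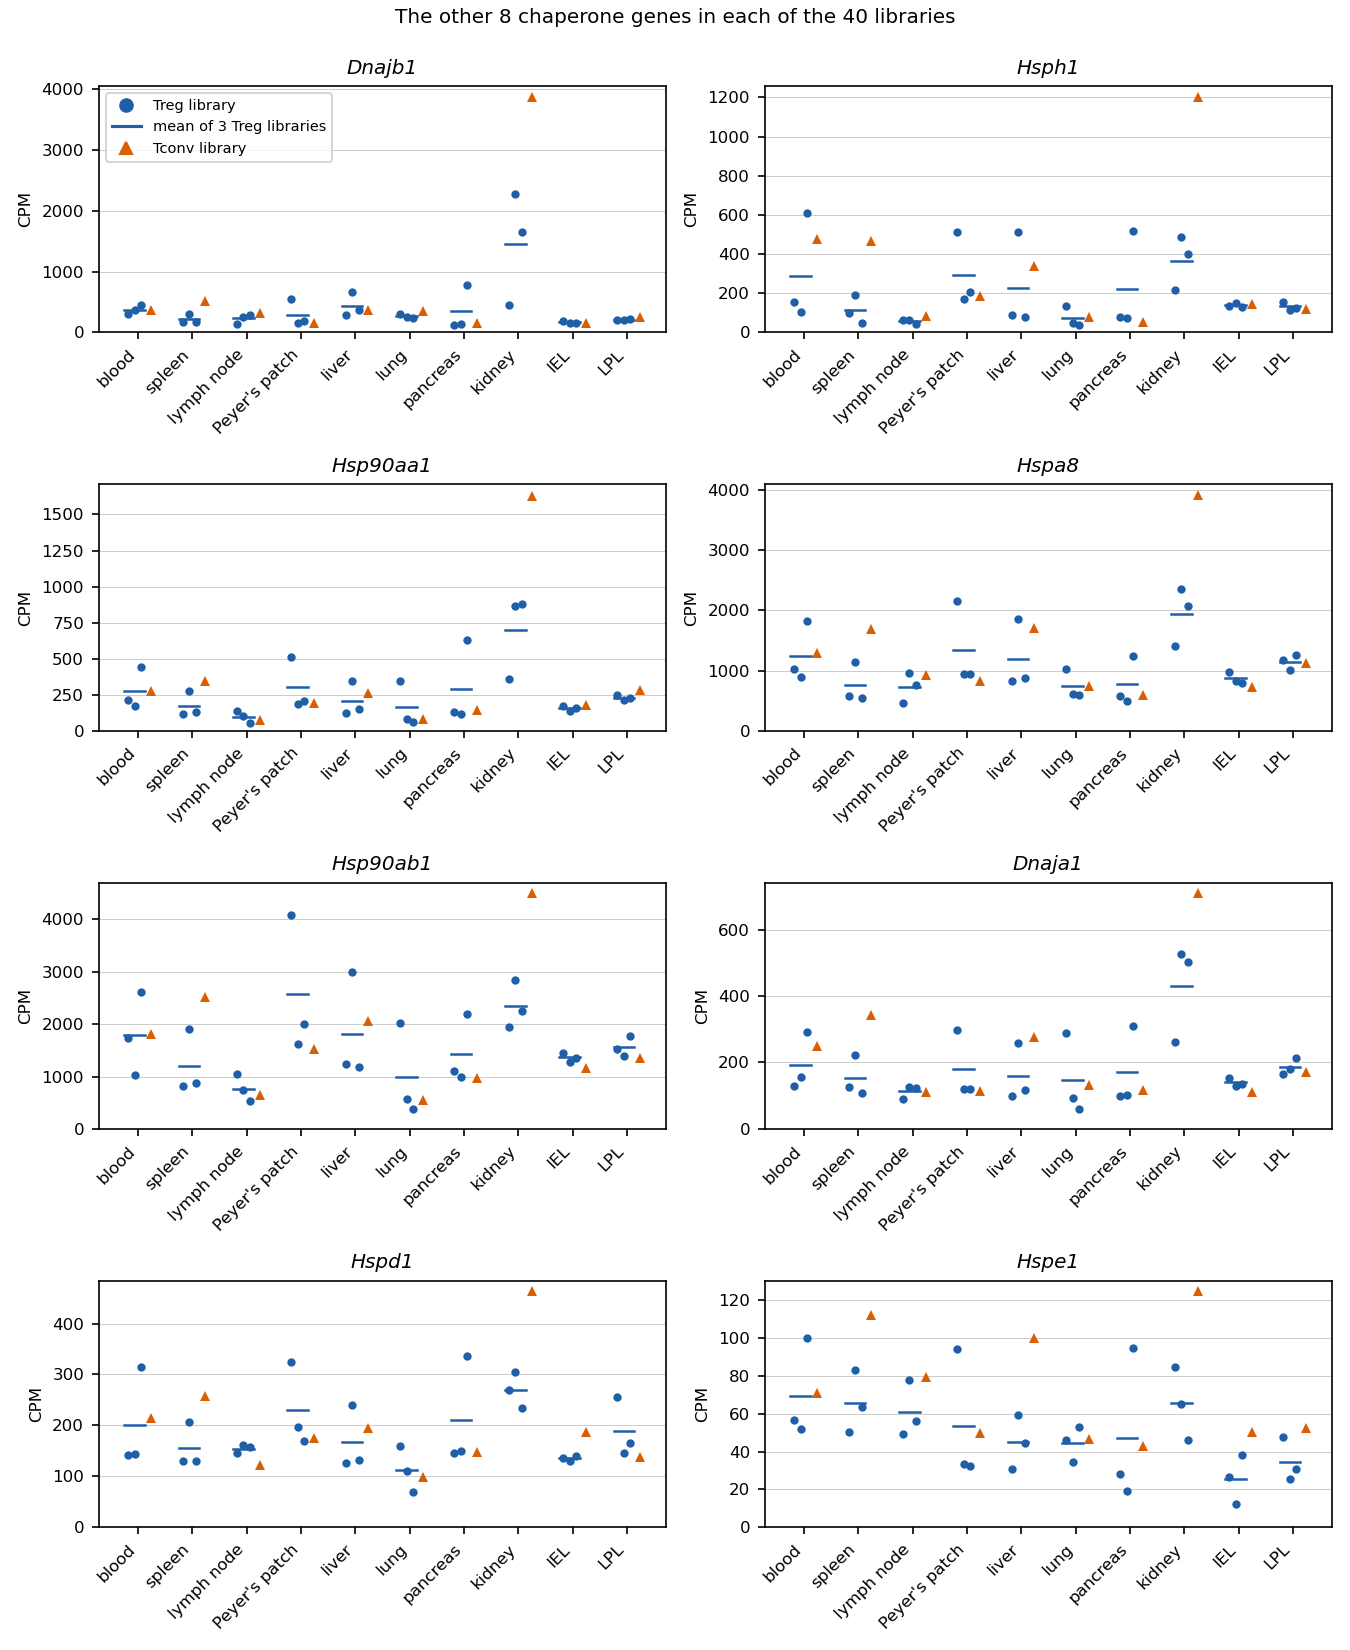
Level of the other 8 members in each library by source, in CPM on linear axes that start at 0 and differ between panels. Blue dots are the 3 Treg libraries of a source, blue lines their means and orange triangles the Tconv library. Kidney Tconv is the highest of the 40 libraries in all 8 panels, and single Treg libraries such as blood 5 for Hsph1 stand above the rest of their source.

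edgeR called neither mitochondrial member in kidney Treg. Hspd1 (ENSMUSG00000025980.14, chromosome 1, 55077835 to 55088243, minus strand), the barrel of the mitochondrial chaperonin, stood at 269.8, 304 and 234 CPM in kidney Treg and from 129.7 to 315 CPM in lymphoid Treg, and its kidney value of 0.68 ± 0.28 did not pass (adjusted p = 0.103). It passed in limma-voom (0.78, adjusted p = 0.0155) and, in edgeR, without blood Treg replicate 5 (0.83, adjusted p = 0.0329). Hspe1 (ENSMUSG00000073676.4, chromosome 1, 55088132 to 55091307, plus strand), the lid of that barrel, had a kidney value of 0.00 ± 0.40.

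Over the 7 single sources, Hspe1 in IEL was edgeR's only call of a member below lymphoid Treg. It stood at 26.5, 12.1 and 38.1 CPM in IEL Treg and at no less than 49.5 CPM in lymphoid Treg (median 56.9). All 3 IEL libraries were below all 9 lymphoid ones, and the log2 fold change was -1.35 ± 0.43 (adjusted p = 0.027). Hspe1 was the 1 member of 10 called in IEL, where 21.2% of all genes were called and 7.77% were lower. The call was lost without IEL Treg replicate 1 (-1.38) or 2 (-1.01), and it was also lost against spleen, lymph node or blood alone and with no filter on low counts. limma-voom also called Hspe1 lower in LPL (-1.07, adjusted p = 0.00506) and in pancreas (-1.18, adjusted p = 0.00797), and edgeR did in pancreas without replicate 6 (-1.42, adjusted p = 0.0469). Over the 6 tissues Hspe1 stood at -0.64 ± 0.24 (adjusted p = 0.0565), which passed in DESeq2 (adjusted p = 0.0409) and limma-voom (0.00111).

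Hspe1 was also read against its partner within each library, with no test. Hspe1 counts were 9.32%, 19.6% and 27.4% of Hspd1 counts in IEL Treg replicates 2, 1 and 3, and 31.7% to 48.8% in the 9 lymphoid libraries. The 3 IEL values lay below all lymphoid ones. So did LPL Treg, at 17.3% to 18.8%, and every Treg library of kidney, pancreas and Peyer's patch. Kidney replicate 1, at 31.5%, was only just below. Liver replicate 4, at 33.7%, lay inside the lymphoid range, and lung replicate 6, at 77.4%, was the highest Treg library. The other liver and lung Treg libraries were below the lymphoid range, so a low ratio was not particular to the gut wall.

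Counted by class, kidney Treg had calls in 4 of 5 inducible members, 2 of 3 constitutive cytosolic members and 0 of 2 mitochondrial members, all higher. That is 6 of 10 members in edgeR, with 6 in DESeq2 and 9 in limma-voom, where edgeR called 16.4% of all genes tested (12.2% higher). Median log2 fold changes were 2.47 for the inducible, 1.15 for the constitutive and 0.34 for the mitochondrial class, beside 0.04 over all genes. LPL had 2 of 10 members called (27.1% of all genes), pancreas 2 (9.95%) and Peyer's patch 1 (3.57%).

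edgeR called 0 members in liver (2 at an unadjusted p under 0.05, 1.12% of all genes called) and 0 in lung (0 at an unadjusted p under 0.05, 11.5%), and DESeq2 and limma-voom called 0 in both. Lung gave 1, Hsp90ab1, without lung Treg replicate 1 (-1.35, adjusted p = 0.0371). Kidney was also set against the other 5 tissues, chosen after its values were seen. There 6 members were called (2.46% of all genes), from 1.07 ± 0.29 for Hspa8 to 6.86 ± 0.96 for Hspa1a, with Dnajb1 at 2.44 ± 0.38, Hsp90aa1 at 1.79 ± 0.44, Dnaja1 at 1.43 ± 0.36 and Hspa1b at 6.04 ± 0.99. Without kidney Treg replicate 3 or replicate 5 that count was 3.

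By source mean, kidney Treg ranked first for 8 of 10 members. The exceptions were Hsp90ab1, first in Peyer's patch, and Hspe1, first in blood at 69.6 ± 26.5 CPM (SD, n = 3) with kidney at 65.4 ± 19.3 CPM. Lymph node ranked last for 7 members, IEL for Dnajb1 and Hspe1, and lung for Hspd1. Of the 9 pairs of neighbours in each order, all overlapped for Hspe1, Hsph1 and Hsp90ab1, and 8 did for each of the others. Overlaps were not counted over all genes, so these numbers only describe the members. The pair apart was LPL and Peyer's patch for Hspa1a and Hspa1b, LPL and IEL for Dnajb1 and Hspa8, IEL and lymph node for Dnaja1 and Hsp90aa1, and lymph node and IEL for Hspd1, so kidney overlapped the next source for every member.

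**Figure D3:**
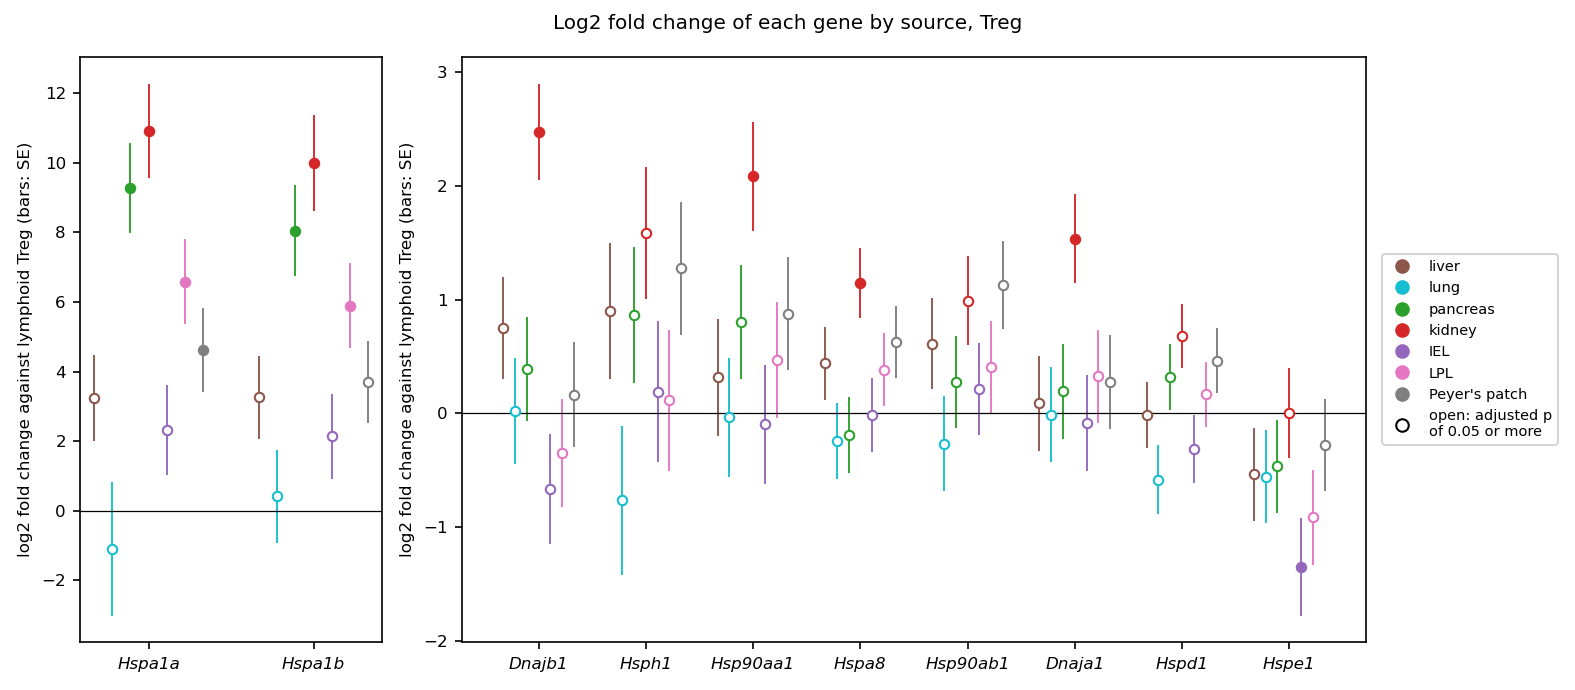
Log2 fold change of each member in Treg of 7 sources against the 9 lymphoid Treg libraries, with bars of 1 SE. Filled points have an adjusted p below 0.05 by edgeR and open points do not. The HSP70 pair is drawn on its own axis because its values reach 10.92.

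Any difference between the 10 Treg sources was found for 5 members, Hspa1a, Hspa1b, Dnajb1, Hsp90aa1 and Hspa8, where 34.5% of all genes were called. Hspa1a, Hspa1b and Dnajb1 kept this with any library left out, at adjusted p of up to 0.0262, while Hspa8 lost it in 12 and Hsp90aa1 in 10 of 30 omissions. Differences between sources held 77.4% of the variance of log2(CPM + 1) for Hspa1a, 73.9% for Hspa1b and 60.4% for Dnajb1. The other members lay between 43.9% for Hspe1 and 53.5% for Hsp90aa1, near the median of 51.3% over all 17909 genes (quartiles 37.8% and 64.8%).

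Within a source, one library was often the highest for most members at once. The same library was the highest of 3 for all 10 members in spleen (replicate 3), Peyer's patch (replicate 1), liver (replicate 3) and pancreas (replicate 6). In blood it was replicate 5 for 9 members, Hspa1a being the exception, and in kidney replicate 3 and lung replicate 1 for 8 each. The share of all genes highest in these libraries was not counted, so the pattern is not shown to be particular to the members. In liver Treg replicate 3 the level of Hsph1 was 6.03 times, and that of Hspe1 1.57 times, the mean of the other 2 libraries. In blood replicate 5 the ratios ran from 0.847 for Hspa1a to 4.75 for Hsph1, and in Peyer's patch replicate 1 from 1.77 for Hspd1 to 74.4 for Hspa1a.

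**Figure D4:**
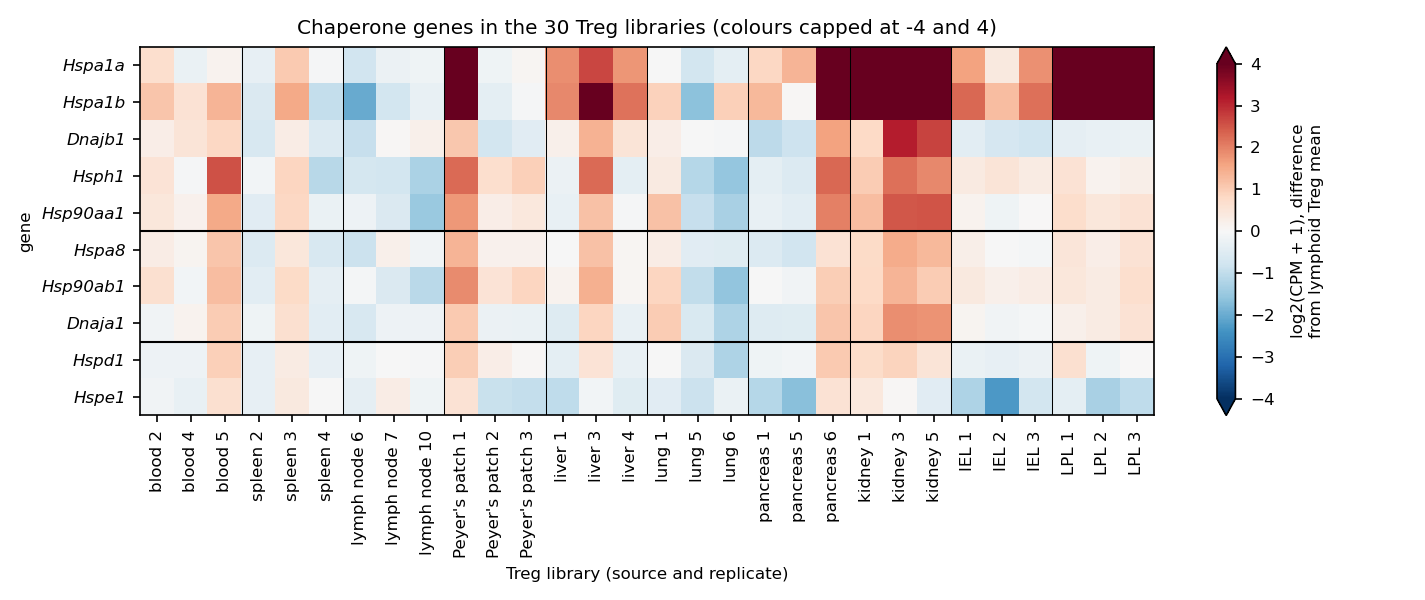
Level of each member in each of the 30 Treg libraries, as log2(CPM + 1) minus the mean of the 9 lymphoid Treg libraries, with red higher, blue lower and colours capped at 4. Horizontal lines part the inducible, constitutive and mitochondrial classes and vertical lines the sources. Kidney columns are red for all cytosolic members, LPL columns for the HSP70 pair, and single columns such as Peyer's patch 1, liver 3 and pancreas 6 stand out within their source.

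Ratios within a library do not depend on its total. Hsp90aa1 counts were 10.4% to 16.9% of Hsp90ab1 counts in the 9 lymphoid Treg libraries. They were 30.5% and 39.0% in kidney Treg replicates 3 and 5, 36.2% in kidney Tconv and 28.6% in pancreas Treg replicate 6. After LPL Tconv at 20.7%, kidney Treg replicate 1 was next at 18.4%, followed by lung Treg replicate 1 at 17.1%. All of these lay above the lymphoid range, the last by little, so the inducible gene took a larger part of the HSP90 pair there.

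Hspa1a and Hspa1b counts together came to 62.2%, 318% and 295% of Hspa8 counts in kidney Treg replicates 1, 3 and 5, and to 324% in pancreas Treg replicate 6. They came to 21.4% to 26.3% in LPL Treg and to at most 1.15% in lymphoid Treg. The level of Hspa8 is uncertain in size, as given above, and so are these percentages. The 10 members summed to 17196 CPM in kidney Treg replicate 3 and to 1505 CPM in lung Treg replicate 6, the highest and the lowest of the 30 Treg libraries.

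Kidney and LPL were also the Tconv sources with the most of the HSP70 pair. In Tconv, with 1 library per source, Hspa1a stood at 3043 CPM in kidney and 121 CPM in LPL. The other 8 Tconv libraries held between 0.525 CPM in Peyer's patch and 7.61 CPM in spleen. Kidney Tconv and LPL Tconv were both above all Treg libraries of their source. Pancreas Tconv, at 1.42 CPM, was at the level of pancreas Treg replicates 1 and 5 and not of replicate 6.

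Kidney Tconv had the highest level of all 40 libraries for each of the 10 members. Dnajb1 reached 3863 CPM, Hspa8 3928 CPM, Hsp90aa1 1631 CPM and Hspe1 125 CPM. With no second kidney Tconv library these values have no replicate.

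Over all sources, with the source as a factor, no member was called between Treg and Tconv. The log2 fold changes of Treg against Tconv ran from -0.76 ± 0.80 for Hspa1a to 0.00 ± 0.21 for Hsp90ab1, and edgeR called 0 of 10 where 17.2% of all genes were called. At an unadjusted p under 0.05 there was 1, Hspe1 (-0.50 ± 0.20, adjusted p = 0.0852), DESeq2 called 0 and limma-voom 1, again Hspe1 (-0.70). It also passed in edgeR without pancreas Treg replicate 6 (-0.59) or Peyer's patch Treg replicate 1 (-0.56).

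The tissue difference was then read in Tconv, with 6 tissue and 3 lymphoid libraries. Hspa1a stood 7.21 ± 3.28 and Hspa1b 6.08 ± 3.10 above lymphoid Tconv on the log2 scale (adjusted p = 0.355 and 0.417). This fit took 1 mean over the 6 tissue libraries, where Hspa1a had a median of 5.35 CPM but 3043 CPM in kidney. The Treg comparisons average the means of single sources on the log2 scale, so the sizes in Treg and Tconv are not comparable. edgeR, DESeq2 and limma-voom called 0 of 10 members, with 0 at an unadjusted p under 0.05. In edgeR no gene at all was called (0%), though 2120 had an unadjusted p under 0.05.

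Whether the tissue difference was larger in Treg than in Tconv was tested by itself. That fit averaged source means in both cell types, so its values are not the Treg values minus the Tconv values above. Each Tconv group in it had 1 library, so its SE and adjusted p rest on the spread between Treg libraries alone. The effect in Treg minus that in Tconv was 2.19 ± 1.70 for Hspa1a and 2.65 ± 1.57 for Hspa1b (adjusted p = 0.695 and 0.524), and the other members lay between -0.20 ± 0.49 for Hspe1 and 1.07 ± 0.75 for Hsph1. No tool called a member (0 at an unadjusted p under 0.05), where 1.75% of all genes were called.

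Other genes of protein folding were read from lists chosen with earlier results of these data known. Of 21 further heat shock factor targets and cochaperones tested, 10 were higher and 1 lower in kidney Treg, where 12.2% of all genes were higher and 4.25% lower (median log2 fold change 0.70, beside 0.04 over all genes). Over the 6 tissues 6 were higher and 2 lower, where 11.9% of all genes were higher and 9.98% lower (median 0.36, beside 0.03 over all genes). Bag3, the exchange factor that links HSP70 to autophagy, rose by 2.50 ± 0.36 in kidney, 2.30 ± 0.36 in pancreas and 1.90 ± 0.36 in LPL. Also higher in kidney were Ier5 (0.90 ± 0.17), an early gene that acts on heat shock factor 1, the J-domain gene Dnaja4 (1.37 ± 0.27) and the ubiquitin gene Ubb (0.80 ± 0.18). None of Hsf1, Hsf2 and Hsbp1, the factors and a protein that binds them, passed in kidney, at 0.18 ± 0.16, 0.14 ± 0.37 and -0.25 ± 0.15.

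Counts for other compartments are read against the share of all genes called, which was 12.2% higher and 4.25% lower in kidney, 17.4% and 9.69% in LPL, and 13.5% and 7.77% in IEL. Of 14 endoplasmic reticulum chaperones, 6 were higher and 0 lower in kidney Treg, led by Dnajb9 (1.53 ± 0.24) and Hspa5 (1.27 ± 0.25), and 10 were higher in LPL. Of 8 subunits of TRiC, the cytosolic chaperonin, 0 passed in kidney and 6 were lower in each of IEL and LPL. Of 8 further mitochondrial chaperones and proteases, 1 was lower in kidney (Grpel2, -0.59 ± 0.19), and of 12 constitutive cochaperones 3 were higher, among them Dnajb6 (0.90 ± 0.22).

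Several measures were read beside the HSP70 pair. They moved with it in some sources and not in others, and their part in it was not tested. A list of 23 early response genes, such as Fos, Junb and Nr4a1, which answer stimulation and cell isolation within minutes, took 1.66 to 2.85% of counts in kidney Treg, 2.17 to 2.64% in LPL, 1.68 to 1.73% in IEL and 0.261 to 0.436% in lymphoid Treg. Of the 23, 20 were higher in kidney, 20 in LPL and 18 in IEL, where 12.2%, 17.4% and 13.5% of all genes were higher. Within kidney Treg the share was 1.66% in replicate 1, the lowest in the HSP70 pair, and 2.81% and 2.85% in replicates 3 and 5. Within Peyer's patch Treg it was 1.10% in replicate 1, the highest in the pair, and 0.492% and 0.463% in the others. The share was higher in pancreas Treg replicates 1 and 5 (1.86% and 2.41%) than in replicate 6 (1.06%), the library with the high HSP70 pair. Lung Treg replicate 1 had a share of 1.38% with 7.44 CPM of the pair.

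**Figure D5:**
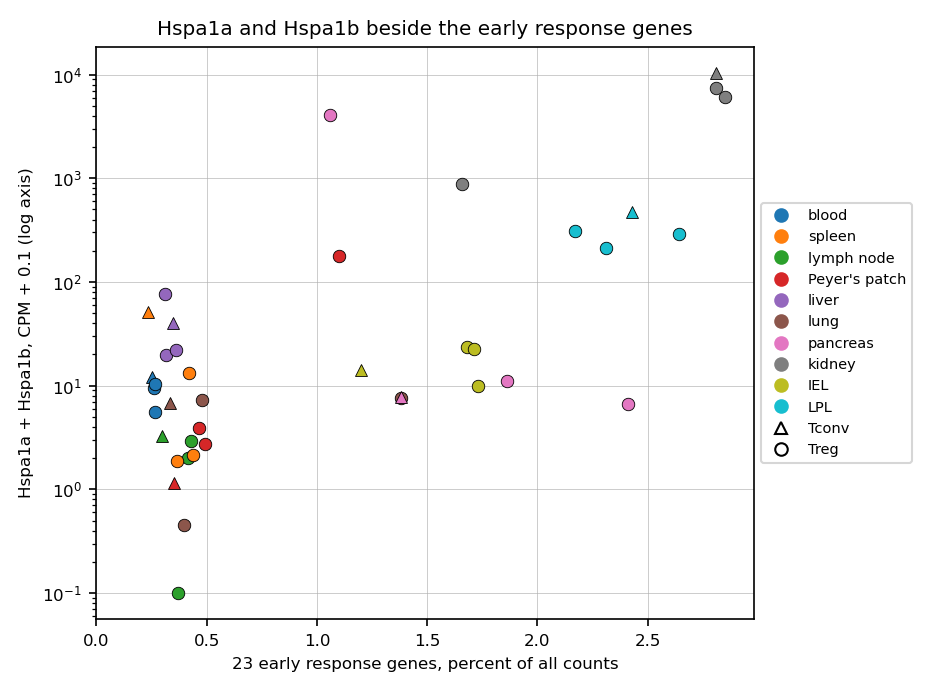
Summed level of Hspa1a and Hspa1b (CPM plus 0.1, log axis) against the share of all counts taken by the 23 early response genes (percent) in each of the 40 libraries, coloured by source, with circles for Treg and triangles for Tconv. Kidney and LPL libraries are high on both axes, IEL and pancreas Treg replicates 1 and 5 are high in early response genes and low in the HSP70 pair, and pancreas Treg replicate 6 is high in the pair at 1.06%.

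Transcripts of other cell types differed between the same libraries. The 12 acinar markers made up 10.4% of pancreas Treg replicate 6, 2.52% of replicate 1 and 2.18% of replicate 5, with none at 0, against 0.000155 to 0.00214% in lymphoid Treg. The 10 tubule markers, none at 0 there, made up 0.214% of kidney Treg replicate 1, the library lowest in the HSP70 pair, and 0.00425% and 0.00282% in replicates 3 and 5 (1 and 2 markers at 0), beside 0.000128 to 0.000984% in lymphoid Treg. In kidney the 10 myeloid markers were lowest in replicate 1, with 0.00389%, 0.0281% and 0.0402% in kidney Treg replicates 1, 3 and 5, 0.0412% in kidney Tconv and 0.000537 to 0.00437% in lymphoid Treg. In pancreas Treg they were lowest in replicate 6 (0.00339%), the library high in the pair, beside 0.0204% and 0.0857% in replicates 1 and 5, and lung Treg, low in the pair, reached 0.171%. In LPL Treg, 8 endothelial and stromal markers took 0.00765 to 0.00940% and myeloid markers 0.000855 to 0.00135%, within the lymphoid ranges of 0.00695 to 0.0281% for the former and the range given above for the latter, while intestinal epithelial markers took 0.00788 to 0.172% in LPL and 0.00655 to 0.0921% in IEL.

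The make-up of these libraries differed in other ways. In kidney Treg, Gm26917, a noncoding gene, made up 2.23% of replicate 1 but 0.862% and 0.823% of replicates 3 and 5. It made up 1.37% of pancreas replicate 6 but 0.468% and 0.355% of replicates 1 and 5, and 3.56% of Peyer's patch replicate 1 but 0.869% and 0.670% of replicates 2 and 3. All 3 blood Treg libraries, low in the HSP70 pair, had 2.20 to 2.49%. Mitochondrially encoded genes took 1.77% in kidney Treg replicate 1 and 0.478% in each of replicates 3 and 5. How far these shares bear on the chaperone levels was not tested.

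Over the 30 Treg libraries, likeness was read as Pearson's r of log2(CPM + 1), as a description, since libraries share sources and depth. Of all genes tested other than members, those most like Hspa1a were Sp9 (r = 0.85, at a mean of only 0.251 CPM), Isg15 (0.83), Acod1 (0.83), Kcna4 (0.82) and Dusp8 (0.81), a phosphatase gene. They ranged from 0.67 to 0.75 without the 2 libraries farthest from the median of Hspa1a. The genes most like Hspa8 were Dnaja4 (0.87), Dedd2 (0.78), Alkbh5 (0.77), Tdpx-ps1 (0.72) and Dnajb4 (0.70), and those most like Hspd1 were Stip1 (0.77), Ubqln1 (0.75), Hspa4l (0.74), Ybx1 (0.73) and Nudc (0.71).

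Among the members themselves, Hspa1a was most like Hspa1b (r = 0.98) and least like Hspe1 (0.23). Hspa8 was most like Dnaja1 (0.89) and least like Hspe1 (0.45), and Hspd1 was most like Hsph1 (0.86) and least like Hspe1 (0.53). Hspe1, head to head with Hspd1, was thus the least alike in each of the 3 lists.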

How the data were processed

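The 40 libraries were read from 1 deposited table of raw gene counts. Per the labels' protocols, 3′ mRNA libraries were made with a QuantSeq kit. Per the submitters' processing notes, the authors used FastQC, MultiQC, Trim Galore, STAR, featureCounts, DESeq and DESeq2 on mm10. Versions, the annotation release, the use of strand and the handling of reads with several matches are not given in the sources used here.

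Counts were fitted in R 4.3.3 with edgeR 4.0.16 (filterByExpr, TMM, trended dispersion, robust quasi-likelihood F test). The 30 Treg libraries shared 1 fit with a mean per source, which tested 17909 genes. Treg against Tconv, and the difference of the tissue effect between them, were fitted over all 40 libraries (14983 genes), and Tconv of 6 tissues against 3 lymphoid sources apart. Calls had an adjusted p below 0.05, with adjustment over all genes tested. Folds carry an SE that was derived as the absolute log2 fold change divided by the square root of F. Levels are CPM after TMM correction, with SD. The floor for 0 counts is 3 counts (95%) on the total before TMM correction and covers counting error only. On simulated counts of 16149 genes with the tissue groups, 80% of genes changed 2-fold and 100% of those changed 4-fold were recovered. The simulation gave every gene the same dispersion and no difference between sources within a group. These shares therefore do not apply to genes as variable as the HSP70 pair. DESeq2 1.42.0, limma 3.58.1 and other settings were alternatives. The members, gene lists and tests were chosen with earlier results of these data known. All 10 members are named, from other lists up to 4 genes with the smallest p per comparison, and for likeness the 5 genes with the highest r, without predicted genes. Sequences are RefSeq's for GRCm38.p6, and 3′ ends were compared over the reference's transcripts. Figures were drawn with matplotlib 3.10.9.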

Additional observations from a re-analysis of the deposited data

Results flagged for a closer look

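Each member was checked for a library far from the rest of its group in the 9 lymphoid Treg and in the 10 Tconv libraries, 20 groups in all. In groups of like libraries, chance alone picks about 1 in 20. These groups pool sources, and the members were read in the same libraries, so that rate does not hold here. In lymphoid Treg, blood replicate 5 stood apart for Hspd1, at 315.1 CPM with the next library at 206.1 CPM, and for Hsph1, at 612.2 CPM with the next at 190.5 CPM.

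Among Tconv, kidney stood apart from the other 9 libraries for every member except Hspe1. It held 464.2 CPM of Hspd1, 709.5 CPM of Dnaja1, 1200.0 CPM of Hsph1 and 3863.2 CPM of Dnajb1. Its levels were 3928.0 CPM for Hspa8, 1631.0 CPM for Hsp90aa1 and 4500.0 CPM for Hsp90ab1. Hspa1a stood at 3042.9 CPM with the next library at 120.8 CPM, and Hspa1b at 7301.7 CPM with the next at 353.0 CPM. It is 1 library, without a replicate.

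Between groups of tissues, Dnajb1 in Treg differed by a log2 fold change of -1.414 between IEL with LPL and the 4 solid organs. The solid organs were unlike in it, and some pancreas Treg libraries lay below all IEL and LPL ones. Between kidney and the other 5 tissues, a comparison chosen after the values were seen, 6 members differed, Hspa1a by 6.855, Hspa1b by 6.035, Dnajb1 by 2.441, Hsp90aa1 by 1.792, Dnaja1 by 1.431 and Hspa8 by 1.071 on the log2 scale.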

How the results depend on the processing

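DESeq2 size factors changed no member's call in any of the 15 comparisons, and no setting tried reversed the direction of a called value. Main counts of members called were 2 over the 6 tissues, 6 in kidney, 2 in pancreas, 1 in IEL, 2 in LPL, 1 in Peyer's patch, 1 between gut wall and solid organs, 6 for kidney against the other 5 tissues, 5 for any difference between sources and 0 elsewhere. With no filter on low counts the count was 0 in IEL, 0 in Peyer's patch, 5 for kidney against the other 5 tissues and 3 for any difference between sources. DESeq2 gave 3 over the tissues and 7 for any difference. With limma-voom it was 9 in kidney, 3 in LPL, 1 in pancreas (Hspe1), 2 for LPL against IEL, 10 for kidney against the other 5 tissues, 10 for any difference between sources and 1 for Treg against Tconv, while over the tissues Hspe1 replaced Hspa1b and in Peyer's patch Hsp90ab1 replaced Hspa1a. Against spleen alone it was 0 over the 6 tissues, 4 in kidney, 1 in pancreas, 0 in IEL, 1 in LPL and 0 in Peyer's patch. Against lymph node alone it was 8 in kidney, 0 in IEL and 0 in Peyer's patch, and against blood alone 0 over the tissues, 3 in kidney, 0 in IEL, 1 in LPL and 0 in Peyer's patch. It was 1 of 9 over the tissues with Hspa1a and Hspa1b summed, and 0 with counts summed per source, which leaves 6 values against 3. With 1 library left out it ran from 2 to 3 over the tissues, 4 to 8 in kidney, 0 to 1 in lung, 1 to 2 in pancreas, 0 to 1 in IEL, 0 to 1 in Peyer's patch, 1 to 2 between gut wall and solid organs, 3 to 7 for kidney against the other 5 tissues, 3 to 9 for any difference, and 0 to 1 for Treg against Tconv, and stayed at 2 in LPL and 0 in liver, LPL against IEL, Tconv and the difference of tissue effects. For the last, only Tconv libraries were left out. The added calls were Hspe1 over the tissues in 7 of 27 omissions, between gut wall and solid organs without pancreas Treg replicate 5, and in pancreas without its replicate 6, and Hspd1 for kidney against the other 5 tissues without lung Treg replicate 1 or pancreas Treg replicate 6. For any difference the count was 3 without any one of the IEL Treg libraries, kidney Treg replicates 3 or 5, LPL Treg replicate 1, lymph node Treg replicate 10 or spleen Treg replicates 2 or 4, 8 without pancreas Treg replicate 6 and 9 without lung Treg replicate 1.

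The replicate numbers were tried as a block, although the labels do not say whether equal numbers share an animal. Deviations of same-numbered libraries from different sources had a median correlation of -0.012 over 58 pairs, 6 of them over 0.1. For libraries with other numbers it was 0.002 over 347 pairs, 27 of them over 0.1. These values do not settle whether the libraries are paired. With the block the members called were 4 in kidney, where Dnaja1 (adjusted p = 0.159) and Hsp90aa1 (0.136) were lost, 0 in pancreas, 0 in IEL, 0 in Peyer's patch, 0 between gut wall and solid organs, 3 for kidney against the other 5 tissues, 1 for Treg against Tconv and 4 for any difference, where Hsp90aa1 (0.356) and Hspa8 (0.0729) were lost and Hspe1 (0.0331) was gained. No paired analysis was possible because Tconv has 1 library per source for Tconv alone and for the difference of tissue effects.

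Over all genes the main counts were 3910 over the tissues, 2942 in kidney, 200 in liver, 2058 in lung, 1782 in pancreas, 3803 in IEL, 4850 in LPL, 639 in Peyer's patch, 4219 between gut wall and solid organs, 8 for LPL against IEL, 440 for kidney against the other 5 tissues, 6185 for any difference, 262 for the difference of tissue effects and 0 in Tconv. In that order of names, limma-voom gave 6116, 5319, 1407, 1110, 4770, 6679, 7792, 2864, 6702, 1056, 2065 and 12848, and 1336 in Tconv. DESeq2 gave 519 in liver, 1089 in Peyer's patch, 160 for LPL against IEL, 601 for the difference of tissue effects and 1079 in Tconv. The block gave 1391 over the tissues, 874 in kidney, 7 in liver, 400 in pancreas, 1339 in IEL, 2075 in LPL, 145 in Peyer's patch, 1941 between gut wall and solid organs, 121 for kidney against the other 5 and 3111 for any difference. Spleen alone gave 1377 over the tissues, 1029 in kidney, 1300 in lung, 369 in pancreas, 1408 in IEL, 2242 in LPL and 151 in Peyer's patch. Blood alone gave 2122, 1588 in kidney, 19 in liver, 2398 in IEL and 3186 in LPL, lymph node alone 417 in liver, 542 in lung and 999 in pancreas, and no filter 19 for LPL against IEL, 1157 for kidney against the other 5 and 18 in Tconv. Counts summed per source gave 0. Without 1 library the lowest were 1597 in kidney, 1011 in pancreas and 2439 in IEL, and the ranges were 52 to 437 in liver, 351 to 1212 in Peyer's patch, 1 to 9 for LPL against IEL, 157 to 1018 for kidney against the other 5, 137 to 415 for the difference of tissue effects and 0 to 116 in Tconv. The cause of these moves was not tested.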
